A study of Mus musculus with 107 samples.

Results

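Id proteins and BMP signaling were followed through 10 genes, of 27179 counted in every library: Id1, Id2, Id3 and Id4, the ligands Bmp4 and Bmp6, the receptors Bmpr1a and Bmpr1b, the antagonist Chrdl1 and the inhibitory SMAD gene Smad6. They were picked by name and function, with earlier results of these data known. All 10 symbols were matched to a mouse Entrez identifier, and all 10 passed the filter on low counts in each of the 17 tests described here.

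BMP ligands bind paired type I and type II receptors, which phosphorylate SMAD1, SMAD5 and SMAD9, and these enter the nucleus with SMAD4 and switch on target genes. The Id genes are among the best known of those targets. Id proteins have a helix-loop-helix but no DNA-binding region, so they pair with E proteins and hold back basic helix-loop-helix factors that drive neuronal and oligodendroglial fates. In the nervous system BMP signaling is known to favor astrocytes over oligodendroglia.

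RNA on HA-tagged ribosomes (RiboTag) was sequenced in 23 groups of libraries. The tagged cells of every group carried the RiboTag allele on C57BL/6. Cultured cells and grafts came from 1 female mouse ESC line, in which Sox2-cre had switched the tag on. ESC (n = 4) were kept in medium with FBS and LIF. NPC were derived from them and expanded in EGF and FGF, and were sampled at passage 5, 15 and 30 (NPC P5, NPC P15, NPC P30, n = 4 each) and at passage 15 of further derivations (NPC P15 D2, n = 6, and NPC P15 D3, n = 4). For spontaneous differentiation (SPONT, n = 4), EGF and FGF were lowered for 4 days, and the other 4-day cultures were SPONT medium with added CNTF, IGF-1, FBS at 1, 5, 10 or 20%, or CNTF and 5% FBS together (n = 4 each). CNTF and IGF-1 were used at 100 ng/ml. Further groups held NPC passed through a pipette in a polypeptide hydrogel (NPC DCH), after 4 hours in it (NPC DCH 4h) or in medium (NPC media), with n = 5 each.

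In the spinal cord, the tag was read in host astrocytes of Gfap-Cre (line 73.12) RiboTag mice that were healthy (n = 9) or at 14 days after crush SCI (n = 5). NPC in the hydrogel were also grafted into mice without the tag, and for SCI the grafting followed the injury by days. They were recovered at 14 days from uninjured cord, crush SCI or a larger double crush (dSCI), and at 5 days from crush SCI (n = 5 each). The paper counts the days of grafts both from injury and from grafting, so grafts and hosts may differ in time after injury. The mice were of both sexes and 8 weeks to 4 months old. Tagged RNA came from a short cord segment, so a library is a mean over all tagged cells, and fewer cells of a type cannot be told apart from less of an RNA per cell. The labels do not state that replicates were separate cultures, and p-values measure the spread between these libraries.

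Library totals were 30473157 to 147764968 counts in the 96 paired libraries and 12286240 to 18085106 in the 11 single-read ones, NPC P15 D2 and the 5-day grafts, which entered no main comparison. ESC held the pluripotent markers (Pou5f1 862–929 CPM, at most 0.139 in NPC P15), NPC P15 held the progenitor marker Nes (1302–1577 CPM), and the astrocyte marker Gfap reached 6279–9858 CPM in SPONT and 17898–23226 in healthy hosts. The 4 SPONT libraries fell into pairs for several members, with libraries 1 and 2 above libraries 3 and 4. Each result against SPONT was therefore repeated with either pair alone. Injured hosts and all 14-day grafts also held markers of cells other than astrocytes, given below beside the results they moved with.

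The bases just upstream of the Id genes are shown because these genes carry the changes described below. Promoters were found in RefSeq's table (GRCm38.p6) for 8 of the 10 genes, Id1 and Chrdl1 not among them. The capitals mark GGCGCC, a GC-rich motif to which SMAD proteins bind in BMP-responsive promoters. Each sequence is the 250 bases before the start of the gene, on the gene's own strand: Id2 is on the minus strand at chr12:25096093-25096342, Id3 on the plus strand at chr4:136143572-136143821 and Id4 on the plus strand at chr13:48260866-48261115.
Id2: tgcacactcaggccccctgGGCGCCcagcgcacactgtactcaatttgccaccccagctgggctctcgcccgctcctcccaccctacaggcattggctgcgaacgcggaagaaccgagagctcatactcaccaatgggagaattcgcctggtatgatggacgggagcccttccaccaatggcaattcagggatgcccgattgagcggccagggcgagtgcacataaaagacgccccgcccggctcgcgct
Id3: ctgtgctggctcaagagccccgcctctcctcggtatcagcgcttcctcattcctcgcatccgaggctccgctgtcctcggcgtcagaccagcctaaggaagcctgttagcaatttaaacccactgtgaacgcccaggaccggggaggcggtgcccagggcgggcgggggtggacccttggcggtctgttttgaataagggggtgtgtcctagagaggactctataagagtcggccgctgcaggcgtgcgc
Id4: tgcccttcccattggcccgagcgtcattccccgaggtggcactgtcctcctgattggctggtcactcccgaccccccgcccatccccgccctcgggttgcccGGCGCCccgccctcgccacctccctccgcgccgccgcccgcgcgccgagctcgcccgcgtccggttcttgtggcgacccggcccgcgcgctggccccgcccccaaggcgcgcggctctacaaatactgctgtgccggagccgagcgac
Id2 held the motif 231 bases and Id4 148 bases before the start, and Id3 had none in this window. Bmpr1a was the other member with a match, so 3 of the 8 searched had one, against 9.59% of 32851 promoters of the same length. The E-box CAGNTG, read by the E proteins that Id proteins bind, was in 4 of the 8 (Id2, Bmp4, Bmp6 and Bmpr1b), against 44.8% of all. The SMAD-binding element GTCTAGAC (0.167% of all) and the STAT motif TTCCNGGAA (0.913% of all) were in none of the 8. Both strands were searched and a match is a string of letters, not a measured site. A member counted if any of its promoters matched, and Bmpr1b had several, whereas the shares of all are per promoter.

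Across the 23 groups the 4 Id genes had different profiles. On the per-length scale (FPKM), which allows genes to be compared, Id1 made up 72.8% ± 1.8 (SD, n = 4) of the summed Id level in ESC. Id3 led in NPC P15 with 53.5% ± 2.1 (n = 4), and Id4 was then 0.347% ± 0.16. In healthy hosts Id2 led with 48.4% ± 1.1 (n = 9), and in injured hosts Id3 did with 45.6% ± 4.6 (n = 5). The summed Id level was lowest in NPC P15, at 93.6 ± 6.6 FPKM, and highest in 5-day grafts, at 1011 ± 348 FPKM (n = 5), followed by 20% FBS at 903 ± 49 FPKM (n = 4). The libraries of the 5-day grafts ran from 446 to 1389 FPKM and those of 20% FBS from 844 to 950, so these neighbors were not apart.

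**Figure D1:**
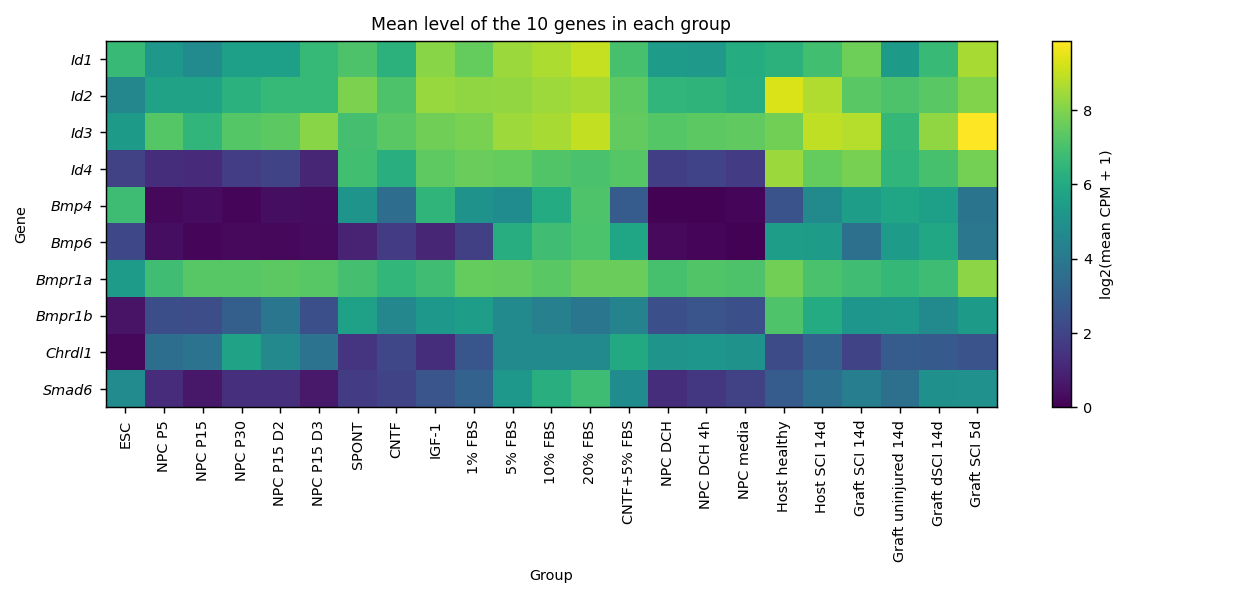
Mean level of each of the 10 genes (y axis) in each of the 23 groups (x axis), colored by log2(mean CPM + 1). Bmp4 and Bmp6 are darkest in all NPC groups, Bmp6 and Smad6 are highest in 20% FBS, and Id2, Id4 and Bmpr1b are highest in healthy hosts.

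The other genes also had their own extremes. Group means of Bmp4, Bmp6 and Smad6 were highest in 20% FBS, at 141 ± 6.2, 132 ± 8.4 and 111 ± 10 CPM (n = 4). Chrdl1, a secreted protein that binds BMP4 and keeps it from its receptors, was highest in CNTF+5% FBS at 63.2 ± 2.4 CPM and next highest in NPC P30 at 50.7 ± 1.6 CPM, with no overlap between their libraries. Bmpr1b, a type I receptor, was highest in healthy hosts at 140 ± 14 CPM (n = 9) and lowest in ESC at 0.434 ± 0.27. Bmpr1a, the other type I receptor, varied least in proportion among the 10: its group means ran from 41.4 ± 4.7 CPM in ESC to 286 ± 101 in 5-day grafts.

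The step from ESC to NPC asked how the pathway differs between the pluripotent cells and the progenitors made from them. ESC medium held FBS and LIF and NPC medium EGF and FGF instead, so cell state and medium cannot be told apart. ESC were rich in Bmp4 and Smad6 and had the higher Id1, whereas NPC P15 had more Id2, Id3, the type I receptors and Chrdl1. Of the 10 genes 5 were higher and 4 lower in NPC P15 at an adjusted p below 0.01 (edgeR quasi-likelihood test, Benjamini-Hochberg over all genes tested). The background was high, since 67.2% of all genes tested were called. Bmp6, 1 of the 4 lower ones, was not called without ESC library 2 (adjusted p = 0.010).

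Bmp4 was at 120, 108, 100 and 112 CPM in the ESC libraries and at 0, 0.0774, 0.604 and 0.315 CPM in NPC P15, a log2FC of −9.01 ± 0.46 (SE). Smad6, which blocks BMP receptors from within the cell and is itself a BMP target, was at 23.7–29.6 CPM in ESC and at 0.434–0.713 in NPC P15 (log2FC −5.64 ± 0.21). Neither gene's groups overlapped. Id1 was 3.91 times higher in ESC, while Id2 and Id3 were each 2.22 times higher in NPC P15. With NPC P15 D3 in place of NPC P15, Id1 was not called (log2FC −0.15, adjusted p = 0.056). Chrdl1 was at most 0.559 CPM in ESC and 10.6–15.0 in NPC P15 (log2FC 6.16 ± 0.87). Among other pathway genes, 5 of 9 receptors and co-receptors were higher and 3 lower, and their median log2FC of 1.26 stood beside −0.10 over all genes. The type II receptor gene Bmpr2 had 1.88 CPM in ESC and 49.0 in NPC P15. Smad7, another inhibitory SMAD gene, moved with Smad6, from 90.8 to 4.78 CPM.

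When growth factors were withdrawn, Id1, Id2, Id3, Id4, Bmp4, Bmpr1b and Smad6 were higher in SPONT than in NPC P15 and Chrdl1 was lower, 8 of 10 where 57.2% of all genes were called. Id4 was at 1.15, 0.49, 1.75 and 1.53 CPM in NPC P15 and at 126, 110, 111 and 118 CPM in SPONT (log2FC 6.72 ± 0.30). Bmp4, from at most 0.604 CPM, was at 50.3, 56.1, 15.7 and 13.3 CPM in SPONT (log2FC 7.33 ± 0.84). Bmpr1b was at 2.02–5.62 CPM in NPC P15 and 35.3–68.3 in SPONT, and Bmpr1a was not called (adjusted p = 0.28). Markers of both glial lineages moved with them. Of the astrocyte markers 5 of 6 were higher (median log2FC 3.28) and their sum was 745–777 CPM in NPC P15 and 7161–10958 in SPONT. Of the oligodendroglia markers 5 of 7 were higher and 1 lower (median log2FC 4.02), with sums of 1728–1760 and 1443–2237 CPM. Their part was not tested.

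The results for Id3 and Smad6 depended on which NPC served as the reference, and the labels do not name the NPC group that SPONT came from. The log2FC of Id3 was 0.61 ± 0.12 against NPC P15 (adjusted p = 1.0e-03), but −0.15 against NPC P5, −0.12 against NPC P30, −0.33 against NPC P15 D2 and −1.08 against NPC P15 D3. The NPC groups themselves differed in Id3, from 84.3–92.5 CPM in NPC P15 to 243–323 in NPC P15 D3. Smad6 also lost its call against NPC P5 (log2FC 0.92), NPC P30 (0.79) and NPC P15 D2 (0.71), and with SPONT libraries 3 and 4 alone (1.39, adjusted p = 0.092).

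The serum series asked how the pathway moves with the dose of FBS. RNA of the targets Id1 and Id3, of the ligand Bmp6, of the antagonist Chrdl1 and of the inhibitor Smad6 stood higher with more FBS, while the receptor Bmpr1b stood lower. In 20% FBS 8 members rose and 1 fell against SPONT, where 55.5% of all genes were called. In 1, 5 and 10% FBS, 6, 8 and 8 members were called, against 8.78, 34.1 and 45.0% of all genes. These comparisons share the 4 SPONT libraries and are not independent.

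Id3 and Smad6 separated at every dose. Id3 was at 154, 134, 104 and 108 CPM in SPONT, 227, 226, 250 and 246 in 1%, 348, 360, 335 and 326 in 5%, 392, 362, 377 and 402 in 10%, and 470, 512, 499 and 512 CPM in 20% FBS. Smad6 was at 3.17, 3.55, 1.504 and 1.16 CPM in SPONT, then 6.56–8.603, 32.2–41.6, 67.4–75.5 and 100–122 CPM at the rising doses. For both genes, the lowest library at each dose lay above the highest at the dose before, in 4 of 4 steps. How many of all genes were apart in this way was not counted. The mean of Smad6 was 47.4 times higher in 20% FBS than in SPONT (log2FC 5.52 ± 0.33), and that of Id3 was 3.99 times higher (log2FC 1.95 ± 0.13).

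Bmp6 rose most between 1 and 5% FBS, with no dose sampled between them, and its libraries did not overlap in the first 3 steps. Its libraries read 1.02, 0.692, 1.03 and 0.899 CPM in SPONT and 3.51, 3.21, 2.08 and 1.92 CPM in 1% FBS, and then 89.7, 46.7, 59.5 and 82.8 CPM in 5% FBS. At 10 and 20% FBS they read 98.8–140 and 124–144 CPM, and these ranges overlapped. Chrdl1 likewise went from 3.36–7.11 CPM in 1% to 20.2–32.3 in 5% FBS and overlapped from there on. Bmp4, a ligand of the same family, was not called in 1, 5 or 10% FBS and was at 135, 144, 138 and 149 CPM in 20% FBS (log2FC 2.01 ± 0.42 against SPONT). The SPONT pairs mattered here. Against libraries 3 and 4 alone it was called in 10% FBS (2.21, adjusted p = 4.3e-05), and against 1 and 2 alone it was not (0.29). In 5% FBS these gave 0.93 and −0.98, neither called. Its libraries lay higher in 10% (55.3–85.8 CPM) than in 5% FBS (17.9–32.4 CPM).

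Id1 was at 171–191 CPM in 1%, 306–358 in 5%, 372–475 in 10% and 470–541 in 20% FBS. It rose against SPONT from 5% on, by 1.26, 1.55 and 1.82 on the log2 scale. Id4 peaked at low doses instead. It was at 110–126 CPM in SPONT, 167–230 in 1% and 125–139 in 20% FBS, where it was not called (log2FC 0.12 ± 0.07). Id2 rose by 0.34 to 0.61 on the log2 scale at each dose, but its call was lost in 6 of 8 fits that left out 1 library in 1% FBS and in 3 of 8 in 5% FBS, as was that of Id4 in 3 of 8 in 10% FBS. Chrdl1 and Smad6 lost theirs in 5 of 8 such fits each in 1% FBS. Bmpr1b fell from 39.6–49.9 CPM in 1% to 22.5–27.8 in 5%, 16.3–20.3 in 10% and 13.0–14.6 in 20% FBS, and the libraries of these steps did not overlap. Bmpr1a was called only in 20% FBS (log2FC 0.63 ± 0.17), and its libraries overlapped at every step. That call was lost without any single 20% FBS library, without SPONT library 3 or 4 (adjusted p = 0.016 to 0.025) and with SPONT libraries 1 and 2 alone (0.062).

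**Figure D2:**
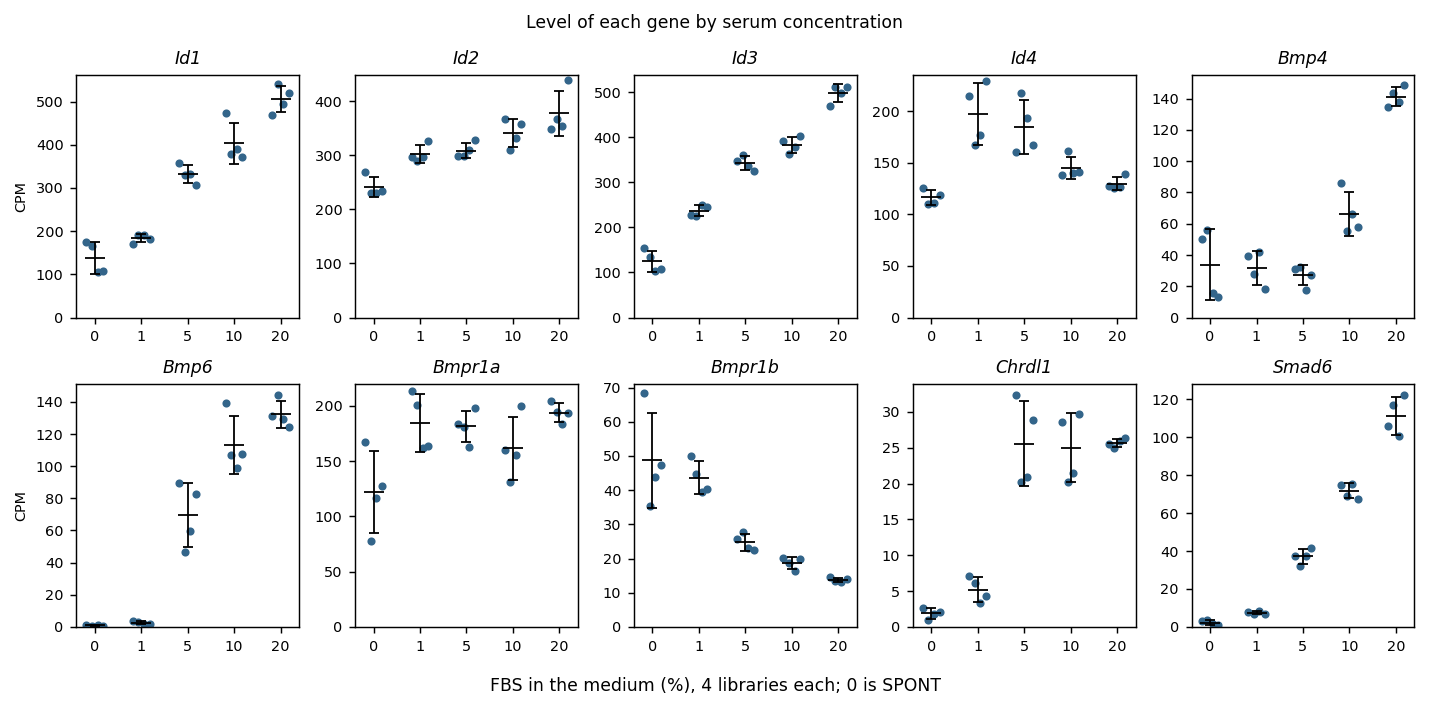
CPM of the 10 genes in each library of SPONT and of 1, 5, 10 and 20% FBS, with doses equally spaced on the x axis, points for libraries and bars for the mean and SD. Id3 and Smad6 are higher at each dose with no overlap, Bmp6 rises most between 1 and 5% FBS, and Bmpr1b falls from 1% FBS on.

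The contrast of 20% with 1% FBS does not use SPONT. Here 7 members rose and 2 fell, where 60.0% of all genes were called, and the call of Id2 was lost in 4 of 8 fits that left out 1 library. Bmp6 had a log2FC of 5.60 ± 0.17 and a mean 49.3 times higher, Smad6 a log2FC of 3.86 ± 0.11 and a mean 14.8 times higher, and Id4 a log2FC of −0.63 ± 0.09. Other genes of the pathway were counted beside them: 9 of 12 further antagonists rose and 0 fell (median log2FC 1.47), and 5 of 8 SMADs and intracellular inhibitors rose and 0 fell (median 0.47), while the median of all genes was −0.00047. Fst, which binds activins and BMPs, went from 0.429 to 8.64 CPM, and Bambi, a pseudoreceptor that is a BMP target, from 12.9 to 50.9 CPM. Atoh8, a target of BMP signaling, had 21.1 CPM in 1% and 241 CPM in 20% FBS. Of 8 E proteins and basic helix-loop-helix genes 5 fell and 2 rose (median −0.91), Hes5 from 83.2 to 0.131 CPM and Olig2 from 639 to 71.7 CPM.

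Markers of other cell types moved with serum. The summed fibroblast and pericyte markers were 10.1–12.6 CPM in SPONT and 420–530 in 20% FBS, with 4 of 6 genes higher and 1 lower, while all 6 astrocyte markers fell from 1 to 20% FBS, and the summed oligodendroglia markers were 1443–2237 and 230–287 CPM. Their part in the changes of the 10 genes was not tested. In 1% FBS 3 members were called without SPONT library 3 or without 1% FBS library 1, 2 or 4. From 628 to 917 of all genes were called in these fits. With SPONT libraries 1 and 2 alone 1 member was called, where 271 of 15410 genes were. With that pair Id2 and Id4 were not called in 5 or 10% FBS, while Id1, Id3, Bmp6, Chrdl1 and Smad6 still rose in 5, 10 and 20% FBS.

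CNTF, a cytokine that signals through gp130 and STAT3 and drives astrocyte differentiation, was tested without and with serum. Without serum, Id1, Id2, Id4 and Bmpr1b fell and Bmp6 rose, 5 members where 19.9% of all genes were called. Bmp4 was lower too but missed the threshold (log2FC −1.69 ± 0.43, adjusted p = 0.013), at 9.46–11.5 CPM in CNTF and 13.3–56.1 in SPONT. It was called lower against SPONT libraries 3 and 4 alone (−0.44) and against libraries 1 and 2 alone (−2.35). With 5% FBS present, Id1, Id2, Id3, Bmp4, Bmpr1b and Smad6 fell and Chrdl1 rose, 7 members where 23.3% of all genes were called. The astrocyte markers did not move as 1 list in CNTF without serum: 2 of 6 were higher and 1 lower (median log2FC −0.16), and their sum, 22141–23177 CPM in CNTF and 7161–10958 in SPONT, was carried by Gfap (21571–22549 and 6279–9858 CPM).

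Id1 was at 358, 331, 332 and 306 CPM in 5% FBS and at 126, 125, 131 and 121 CPM in CNTF+5% FBS, 2.64 times lower in the mean (log2FC −1.47 ± 0.06, adjusted p = 9.2e-07). Id3 was at 326–360 CPM without and 172–187 CPM with CNTF (log2FC −1.01 ± 0.05), and Id2 at 298–327 and 161–177 CPM. Bmp4 was at 31.3, 32.4, 17.9 and 27.4 CPM in 5% FBS and at 5.73, 5.56, 6.52 and 7.73 CPM in CNTF+5% FBS (log2FC −2.17 ± 0.19). None of these groups overlapped. Smad6 fell less, from 32.2–41.6 to 25.0–28.0 CPM (log2FC −0.53 ± 0.08). Chrdl1 was at 32.3, 20.2, 20.9 and 28.8 CPM in 5% FBS and at 61.4, 63.2, 61.6 and 66.5 CPM with CNTF added, a log2FC of 1.23 ± 0.15. Bmpr1b fell by 0.36 on the log2 scale, a call that was lost without any single CNTF+5% FBS library, without 5% FBS library 1 or 2 (adjusted p = 0.012 to 0.027) and with all groups in 1 fit (0.099), where Smad6 was not called either (0.020). Bmp6 and Bmpr1a were not called, and Id4 missed the threshold (log2FC −0.35 ± 0.09, adjusted p = 0.010).

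**Figure D3:**
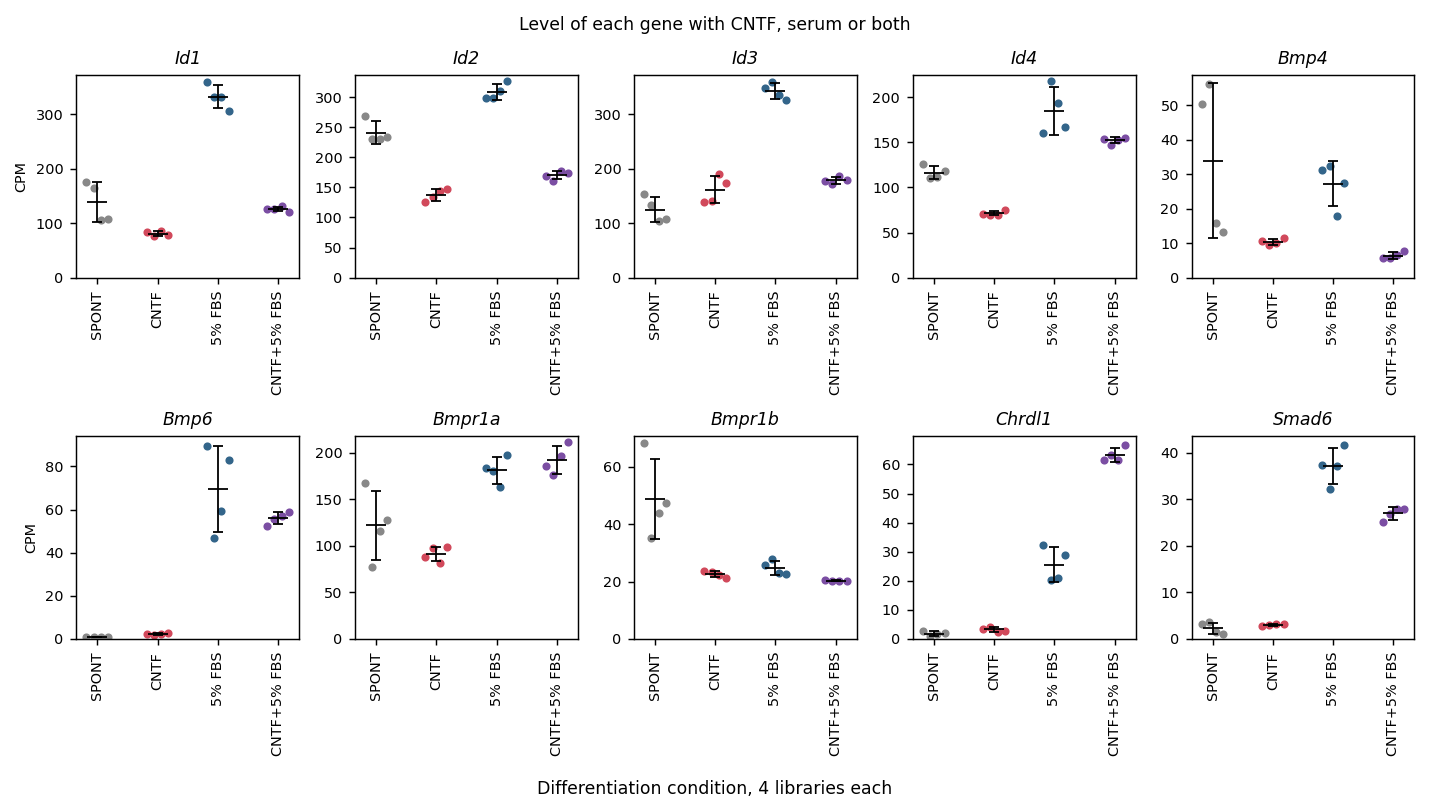
CPM of the 10 genes (y axis) in each of the 4 libraries of SPONT, CNTF, 5% FBS and CNTF+5% FBS (x axis), with bars for the mean and SD. Id1, Id2, Id3 and Bmp4 are lower in CNTF+5% FBS than in 5% FBS with no overlap, and Chrdl1 is higher.

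Without serum, Id1 was at 176, 165, 106 and 108 CPM in SPONT and at 83.9, 75.5, 84.7 and 78.2 CPM in CNTF (log2FC −0.77 ± 0.17, adjusted p = 5.6e-03). The SPONT pairs set its size, which was −0.37 against libraries 3 and 4 and −1.08 against libraries 1 and 2. Id2 was at 231–269 CPM in SPONT and 126–148 in CNTF, and Id4 at 110–126 and 69.9–74.5 CPM, both apart. Id3 was not called (log2FC 0.39 ± 0.15, adjusted p = 0.069). With SPONT libraries 3 and 4 alone all 10 members were called, where 6437 of 15235 genes were, and Id3 was higher in CNTF (log2FC 0.64). Leaving out SPONT library 1 or any CNTF library ended the call of Id1, with adjusted p of 0.011 to 0.021.

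Whether CNTF gives another change when serum is present was tested as the difference between the log2FC with and without 5% FBS. That difference was −1.41 ± 0.17 for Id3 (adjusted p = 8.1e-06), −1.77 ± 0.27 for Bmp6, −0.72 ± 0.19 for Id1 and 0.71 ± 0.19 for Bmpr1b, 4 members where 22.9% of all genes were called. For Bmp6 it came from a rise at low levels without serum, 0.692–1.03 CPM in SPONT and 1.87–2.79 in CNTF. With serum Bmp6 was at 46.7–89.7 CPM without and 52.4–58.7 with CNTF, and was not called. Id1 and Bmpr1b lost the call with SPONT libraries 1 and 2 alone (adjusted p = 0.010 and 0.013). Leaving out 1 library ended the call of each in 12 of 16 fits, any CNTF+5% FBS library among them (0.012 to 0.017), and all groups in 1 fit ended that of Bmpr1b (0.013). Atoh8 had a difference of −1.13 ± 0.17, the sign of Id1 and Id3, while Id2 (−0.16), Id4 (0.32) and Bmp4 (−0.50) were not called. With SPONT libraries 3 and 4 alone, Bmp4 (−1.74) and Smad6 (−1.76) were called. Id4 was called without 5% FBS library 2 (0.42), as were Bmpr1a (0.55) and Smad6 (−1.21) without SPONT library 2. Atoh8 was at 84.8 CPM in 5% FBS and 47.4 CPM in CNTF+5% FBS. Fibroblast and pericyte markers also moved, from 138–438 CPM in 5% FBS to 28.6–32.7 CPM with CNTF, and their part was not tested.

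Seen from the other side, with CNTF present 7 members rose and 2 fell when serum was added, where 72.8% of all genes were called. The calls of Bmp4 (adjusted p = 0.041) and Bmpr1b (0.17), the 2 that fell, were lost with all groups in 1 fit. Chrdl1 was at 2.57–4.22 CPM in CNTF and 61.4–66.5 in CNTF+5% FBS (log2FC 4.15 ± 0.10), Bmp6 at 1.87–2.79 and 52.4–58.7 CPM (log2FC 4.48 ± 0.08) and Smad6 at 2.81–3.25 and 25.0–28.0 CPM (log2FC 3.04 ± 0.07). Id3 was not called here (log2FC 0.03 ± 0.08). All 8 of the other SMADs and intracellular inhibitors rose (median log2FC 0.57).

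IGF-1, a growth factor that supports oligodendroglia, gave higher levels of all 4 Id genes, and no other member was called, where 6.55% of all genes were called. Id1 was at 278, 279, 287 and 255 CPM (log2FC 1.04 ± 0.17 against SPONT), Id3 at 204–218 (0.80 ± 0.12), Id4 at 153–179 (0.58 ± 0.07) and Id2 at 287–354 CPM (0.47 ± 0.08). Each lay above all SPONT libraries. Bmp4, at 80.5–90.9 CPM, missed the threshold (log2FC 1.42, adjusted p = 0.028). The calls are fragile: all 4 were lost without SPONT library 3, without SPONT library 4, without any single IGF-1 library and with SPONT libraries 1 and 2 alone, where adjusted p was 0.051 to 0.11. In each of these fits at most 1 of all genes was called.

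In host astrocytes the question was how the pathway differs after SCI. Injured hosts had more Bmp4, Id3, Chrdl1 and Smad6 and less Id2, Id4, Bmpr1a and Bmpr1b, 8 members where 41.1% of all genes were called. Chrdl1 was not called without injured host 1, 2 or 4 (adjusted p = 0.010 to 0.015), nor with all groups in 1 fit (0.044), where Smad6 was not called either (0.024). Healthy hosts read 2.601 to 7.45 CPM of Bmp4 (median 4.59), and injured hosts 29.0, 23.5, 28.3, 18.4 and 28.0 CPM, 5.32 times higher in the mean (log2FC 2.23 ± 0.22). Id3 was at 188–245 CPM (median 224) in healthy hosts and at 490, 531, 429, 387 and 585 CPM after SCI (log2FC 0.98 ± 0.10). Id4 went the other way, from 291–376 CPM (median 331) to 189, 171, 196, 210 and 148 CPM (log2FC −1.05 ± 0.08). None of these 3 genes overlapped between groups.

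Id2 was at 560–695 CPM in healthy hosts and 325–531 after SCI (log2FC −0.78 ± 0.10), Bmpr1b at 122–163 and 40.8–104 CPM (−1.28 ± 0.16), and Bmpr1a at 181–254 and 89.5–172 CPM (−0.92 ± 0.12). Id1 was not called (log2FC 0.39 ± 0.16, adjusted p = 0.050). Of the other antagonists 4 of 11 rose and 1 fell (median log2FC 0.61, against 0.02 over all genes), with Fst from 0.209 to 7.70 CPM and Sostdc1 from 6.92 to 37.9 CPM. Smad7 rose with Smad6, from 23.03 to 63.2 CPM, while Smad9 fell from 59.9 to 27.6 CPM.

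Y-linked RNA, which marks male mice, differed between the host libraries, so sex went partly with injury in the main host comparison. Summed Y-linked RNA was 64.3–102 CPM in healthy hosts 1 to 7, at most 0.0823 CPM in healthy hosts 8 and 9 and at most 0.0512 CPM after SCI. Against healthy hosts 8 and 9 alone, 6 members were called, where 3015 of 17781 genes were. Id3 (log2FC 0.95, adjusted p = 0.013) and Chrdl1 (0.91, adjusted p = 0.076) were not called, and Bmp4, Smad6, Id2, Id4, Bmpr1a and Bmpr1b were. Myeloid markers summed to 11.5–22.7 CPM in healthy and 106.9–492 CPM in injured hosts, and oligodendroglia markers to 5211–11098 and 21358–36137 CPM. Fibroblast and pericyte markers summed to 140–222 and 485–1009 CPM, with 5 of 6 genes higher (median log2FC 2.42), and endothelial markers to 4.63–7.43 and 9.23–16.0 CPM. The part of these cells was not tested.

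In grafts, higher Id RNA went with injury. Id1, Id3 and Id4 rose in grafts in crush SCI against grafts in uninjured cord, where 4.64% of all genes were called, and Id1 and Id3 rose in dSCI grafts, where 4.19% were called. Both contrasts share the uninjured grafts. No other member was called in these fits, but other settings added some. In SCI grafts Bmp6 was called lower with all groups in 1 fit (log2FC −1.62, adjusted p = 5.8e-04), without uninjured graft library 3 (−1.86) and with DESeq2 (−1.58), which also called Bmpr1a higher (0.56). In dSCI grafts Smad6 was called higher with all groups in 1 fit (1.56, adjusted p = 1.2e-04), with DESeq2 (1.58) and without dSCI library 5 (1.70).

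Id3 was at 95.6, 91.9, 99.2, 89.8 and 90.7 CPM in uninjured grafts, 401, 407, 450, 658 and 237 CPM in SCI grafts and 335, 336, 414, 256 and 147 CPM in dSCI grafts. Every injured library lay above every uninjured one (log2FC 2.47 ± 0.22, adjusted p = 3.4e-05, and 1.86 ± 0.17, adjusted p = 1.8e-04). Id1 was at 24.9, 38.8, 55.8, 49.6 and 35.1 CPM in uninjured grafts, 174, 200, 185, 394 and 77.8 CPM in SCI and 110, 134, 116, 82.9 and 60.7 CPM in dSCI grafts, again with no overlap with uninjured grafts. Its mean was 5.05 times higher in SCI (log2FC 2.61 ± 0.34) and 2.46 times higher in dSCI (1.52 ± 0.21). Id4 was at 70.4–119 CPM in uninjured and 97.7–345 CPM in SCI grafts, which overlapped (log2FC 1.61 ± 0.25, adjusted p = 1.6e-03).

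**Figure D4:**
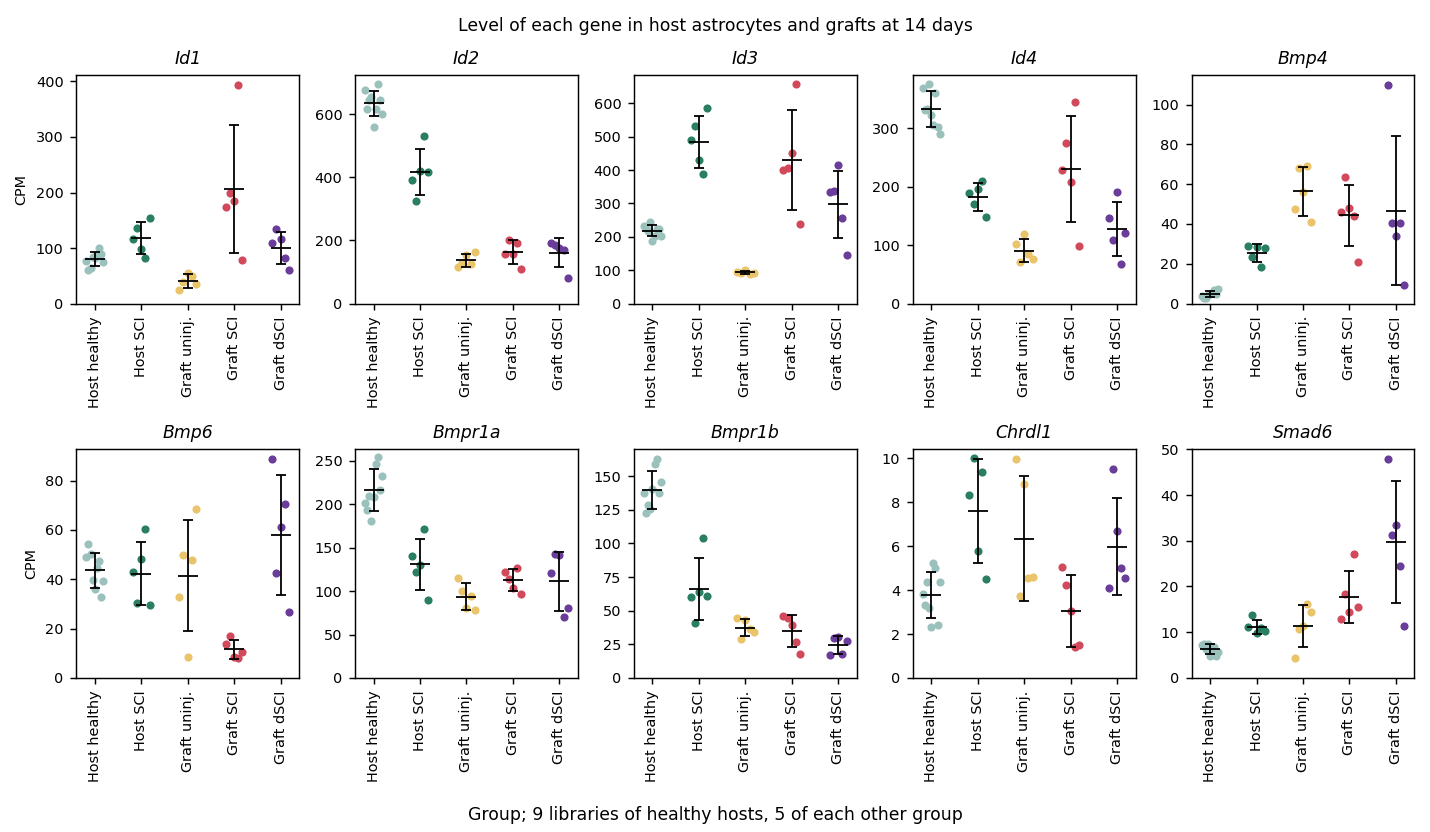
CPM of the 10 genes (y axis) in each library of healthy and injured hosts and of 14-day grafts (x axis), with bars for the mean and SD. Id1 and Id3 of SCI and dSCI grafts lie above all uninjured grafts, Id4 is lower in injured than in healthy hosts, and Bmp6 is lower in SCI than in dSCI grafts.

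Few of the other pathway genes were called beside them. Atoh8 rose from 13.2 CPM in uninjured to 41.4 in SCI and 35.4 in dSCI grafts, as 1 of 4 further targets in each contrast. Bambi rose from 11.3 to 33.1 and 29.3 CPM, as 1 of 8 SMADs and inhibitors. Fstl1, a follistatin-related antagonist, was the 1 of 11 antagonists called in dSCI grafts. Olig1 and Olig2, basic helix-loop-helix factors of the oligodendroglial lineage, fell in dSCI grafts, Olig2 from 332 to 85.5 CPM. Neuron markers summed to 1007–4631 CPM in uninjured, 414–692 in SCI and 241–1043 CPM in dSCI grafts. Oligodendroglia markers summed to 11595–25978, 4151–10249 and 3576–11938 CPM in the same order, and fibroblast and pericyte markers to 1021–3061, 754–2604 and 4214–19365 CPM. Uninjured grafts were thus apart from SCI grafts in neuron and oligodendroglia sums and from dSCI grafts in the fibroblast and pericyte sum, and the part of these cells in the Id changes was not tested.

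SCI and dSCI grafts differed in 1 member, Bmp6, where 1.83% of all genes were called. It was at 13.9, 17.1, 8.59, 7.94 and 10.7 CPM in SCI and at 88.8, 42.6, 61.0, 70.6 and 26.7 CPM in dSCI grafts, a mean 4.97 times higher with no overlap (log2FC 2.24 ± 0.28, adjusted p = 3.4e-03). Uninjured grafts spanned both, at 32.8, 49.8, 8.34, 47.9 and 68.4 CPM. The call was lost without SCI library 1, 2 or 3 or dSCI library 2 (adjusted p = 0.011 to 0.017), where 0 of all genes were called. Fibroblast and pericyte markers were 754–2604 CPM in SCI and 4214–19365 CPM in dSCI grafts, endothelial markers were 23.3–72.7 and 69.4–618 CPM, and Cdh5 and Col1a1 were above 0 in each library, and the part of these cells was not tested.

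Grafts and host astrocytes differed in how these genes moved with injury. The difference between the injury log2FC of grafts in crush SCI and of hosts was 2.62 ± 0.24 for Id4, 2.18 ± 0.36 for Id1, 1.45 ± 0.22 for Id3 and 1.26 ± 0.18 for Id2, and −2.36 ± 0.34 for Bmp4. In all, 8 members differed, where 16.8% of all genes were called and the median over all genes was −0.13. Id4 was thus higher with injury in grafts and lower in hosts. Bmp4 rose in hosts, whereas in grafts it was at 41.1–69.2 CPM without and 20.9–63.9 CPM with SCI. Bmpr1a and Bmpr1b, which fell in hosts, had differences of 1.42 ± 0.19 and 1.39 ± 0.26. Host libraries came from Gfap-Cre tagged cells, and graft libraries from NPC progeny placed in a hydrogel after the injury. Cell source, carrier, timing and response therefore cannot be told apart. Both also held RNA that marks other cells. Oligodendroglia markers summed to 5211–11098 CPM in healthy and 21358–36137 in injured hosts. In grafts they went the other way, from 11595–25978 CPM in uninjured cord to 4151–10249 in SCI. The part of these cells was not tested. With healthy hosts 8 and 9 alone, 912 of the 18540 genes tested were called. Bmpr1b (adjusted p = 0.010) and Chrdl1 (0.13) were then not called. The call of Chrdl1 (−1.67) was marginal: it was lost in 18 of 24 fits that left out 1 library, with DESeq2 size factors, with no filter on low counts and with all groups in 1 fit (adjusted p = 0.010 to 0.024 over these).

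Grafts recovered at 5 days, read as single-end libraries and so given as levels, had the highest Id3 of all groups: 1322, 1024, 1050, 418 and 861 CPM. Library 4 was the lowest there, and also for Id1 (144 CPM against 384–545), Bmpr1a (108 against 306–361) and Bmpr1b (14.4 against 45.8–51.2 CPM). That library held the most myeloid marker RNA, 3106 CPM where the lowest of the 5 had 178. Bmp4 was at 4.37–28.3 CPM at 5 days and 20.9–63.9 CPM at 14 days in crush SCI. The read types differ between these ages, so no test was made.

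**Figure D5:**
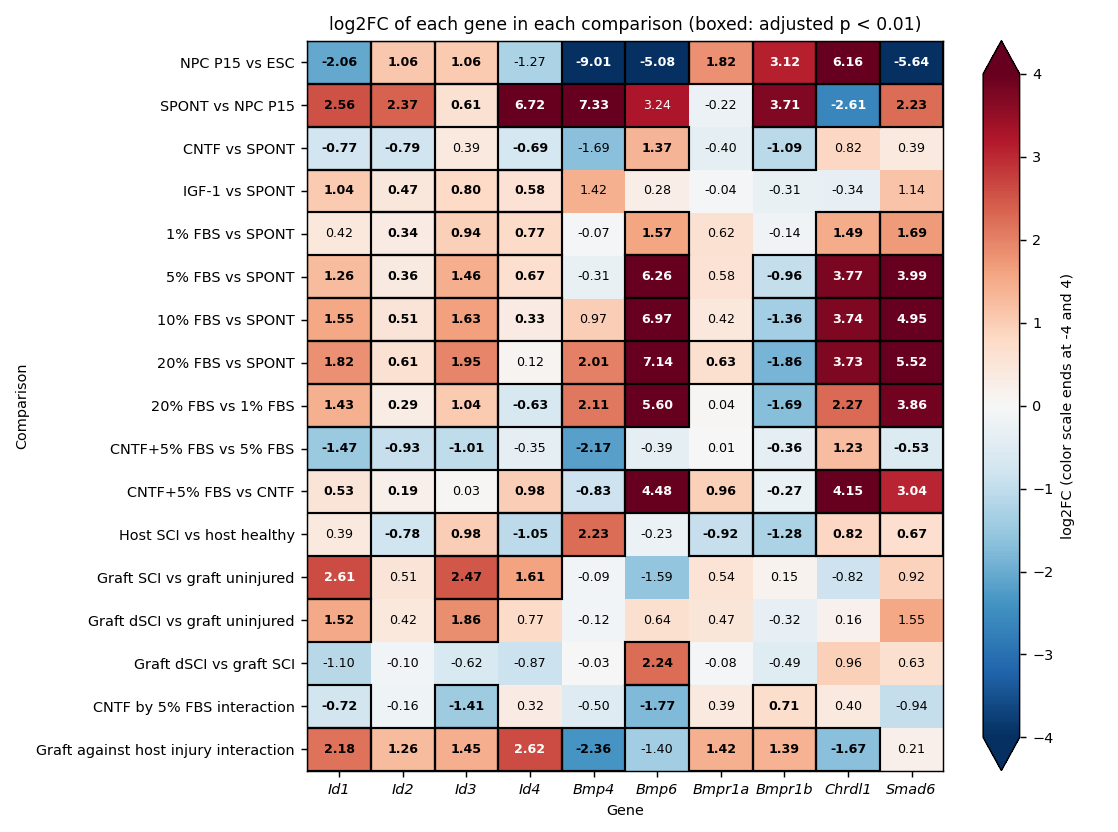
Log2FC of the 10 genes (x axis) in each comparison (y axis), as color and number, with a box where the adjusted p was below 0.01. Comparisons of 5, 10 and 20% FBS with SPONT are boxed for 8 or 9 genes, and comparisons among grafts for Id1, Id3 and Id4 and, in dSCI against SCI, for Bmp6.

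The genes whose profiles over the 23 group means were most like each member's are given as a description, over 14290 genes and on the log2(CPM + 1) scale, where the culture and graft groups share 1 ESC line. Id4 ran with the astrocyte gene Gfap (Pearson's r = 0.98), Gm973 and Psd2 (0.98 each). Bmpr1b ran with the astrocyte-enriched receptor genes Ednrb and S1pr1 (0.96 each) and with Ppp1r3c (0.96). Bmp6 ran with Col22a1 (0.96), Klhdc8a and Synpo (0.95 each), and Smad6 with Pxk (0.95), B3gnt2 and Fam43a (0.94 each). The closest gene to Bmp4 was Tnip1 (0.93), to Id2 Lrrc75b (0.93), to Chrdl1 Erlin2 (0.92), to Id1 Gm10080 (0.92), to Bmpr1a Ggh (0.86) and to Id3 Fkbp7 (0.84).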

How the data were processed

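RiboTag RNA-seq was read in 107 libraries of mouse cultures, grafts and host astrocytes. The authors used Trimmomatic, HISAT2 (build mm10) and featureCounts, and deposited raw counts per Entrez gene for each library. In the 96 paired libraries both mates were counted, and 11 libraries were single-read. Strand use in counting is not given in the sources used here. Symbols and promoters came from RefSeq (GRCm38.p6), which named 25275 of the 27179 genes. Exon lengths came from GENCODE, matched by Entrez identifier. Plain CPM used library totals, FPKM used exon lengths, and fold changes used TMM scaling, so their sizes can differ a little.

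Each comparison was fitted on its own groups over all genes that passed filterByExpr with edgeR 4.0.16 in R 4.3.3 (quasi-likelihood F test, Benjamini-Hochberg adjustment, threshold 0.01). SE is the absolute log2FC divided by the square root of F. Where libraries are said to be apart or not to overlap, the share of all genes doing so was not counted. Both interactions were terms of a fit over their 4 groups. The fits were tested on simulated data. The 10 members and the pathway and marker lists were chosen with earlier results of these data known. All members were named, plus up to 3 called genes of each pathway list per comparison at 1 CPM or more, and the 3 genes most like each member. Markers and other list genes named with levels were chosen after their values were seen. Alternatives were DESeq2 1.42.0 and its size factors, other filters, an adjusted p of 0.05, all groups in 1 fit, a replicate block, other NPC references and leaving out each library. Fits with SPONT or healthy-host subsets were chosen after seeing the data. There were 0 columns of other samples. Single-read groups entered no main test.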

Additional observations from a re-analysis of the deposited data

Results flagged for a closer look

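Of 209 combinations of gene and group looked at, 15 held a library far from the rest of its group, where chance gives about 1 in 20. In 5-day grafts library 4 was low for Id1 (144 CPM, others 384–545), Bmpr1a (108, others 306–361) and Bmpr1b (14.4, others 45.8–51.2). In 14-day dSCI grafts, library 5 was low for Id2 (81.6 CPM, others 169–192.4). Among differentiated cultures, SPONT library 1 was high for Id2 (269 CPM, others 231–233). Id4 was high in CNTF library 4 (74.5 CPM, others 69.9–70.3), 10% FBS library 2 (161, others 138–141) and 20% FBS library 4 (139, others 125–127).

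In ESC and NPC, Id4 was low in ESC library 1 (1.90 CPM, others 3.05–3.16) and Id2 in NPC P30 library 4 (76.9, others 79.4–79.8). NPC P15 D3 library 4 was high for Bmpr1a (179.6 CPM, others 150–154) and Chrdl1 (16.1, others 11.3–11.7). Chrdl1 was low in NPC DCH library 4 (25.8 CPM, others 33.8–37.1). In NPC media, Id3 was low in library 3 (162 CPM, others 178–183) and Smad6 was at 0 CPM in library 4 (others 2.85–4.30).

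Differences between effects that passed the edgeR threshold were also picked out. For CNTF with against without 5% FBS, they were −0.72 for Id1, −1.41 for Id3, −1.77 for Bmp6 and 0.71 for Bmpr1b on the log2 scale. For injury in grafts against hosts, they were 2.18 for Id1, 1.26 for Id2, 1.45 for Id3, 2.62 for Id4, −2.36 for Bmp4, 1.42 for Bmpr1a, 1.39 for Bmpr1b and −1.67 for Chrdl1. That of Chrdl1 lost its call in 18 of 24 fits that left out 1 library.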

How the results depend on the processing

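The number of members called moved by over 1.5 times in these cases, and the cause was not tested. CNTF against SPONT gave 8 with all groups in 1 fit and 10 with SPONT libraries 3 and 4. IGF-1 gave 0 with SPONT libraries 1 and 2, and 1% FBS gave 1. SCI grafts gave 5 at an adjusted p under 0.05 and 5 with DESeq2. For dSCI against SCI grafts these gave 2 and 2, and all groups in 1 fit gave 3. The CNTF by FBS difference gave 2 with SPONT libraries 1 and 2. Leaving out 1 library gave 0 to 6 for IGF-1, 3 to 7 for 1% FBS, 0 to 2 for dSCI against SCI and 2 to 6 for CNTF by FBS. Against NPC P5, P30, P15 D2 and P15 D3, the log2FC of Id3 in SPONT turned to −0.15, −0.12, −0.33 and −1.08. That of Olig1 turned to 0.49 with P15 D2 and 1.14 with P15 D3, and that of Hes1 to 0.026 with P15 D3. Same-numbered libraries showed no strong pairing: mean correlations of their deviations were −0.060 to 0.18, and no comparison had every pair over 0.1. In 5, 10 and 20% FBS against SPONT every pair was positive (lowest 0.059, 0.054 and 0.012), so weak pairing there is possible. With the replicate block, IGF-1 gave 0 members, dSCI against uninjured grafts 1 and dSCI against SCI 0, and Smad6 in hosts and Chrdl1 in grafts against hosts lost their calls (adjusted p = 0.015 and 0.014). Of the members' called values under the planned settings that kept every library, 793 kept direction and call, 27 lost the call and 4 reversed. The 793 include those at an adjusted p of 0.05 on the same fit, where a call at 0.01 cannot be lost. When 1 library was left out, 967 kept both and 117 lost the call.

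Over all genes, an adjusted p under 0.05 gave 5031 calls for CNTF (2961 at 0.01), 4530 for IGF-1 (979), 2858 for 1% FBS (1312), 6058 for CNTF+5% FBS against 5% FBS (3564), 2203 for SCI grafts (734), 1804 for dSCI grafts (666), 1337 for dSCI against SCI (289), 6168 for CNTF by FBS (3600) and 4799 for grafts against hosts (2947). DESeq2 gave 3565 for IGF-1, 2468 for 1% FBS, 2030 and 1825 for SCI and dSCI grafts and 1348 between them, where no filter on low counts gave 440. The block gave 1 for IGF-1, 833 for 1% FBS, 4221 for hosts (6933), 35 for dSCI grafts, 0 for dSCI against SCI and 1695 for grafts against hosts. All groups in 1 fit gave 4123 for CNTF, 4030 for IGF-1, 2890 for 1% FBS, 4072 for hosts, 2329 and 2308 for SCI and dSCI grafts and 1528 between them. SPONT libraries 3 and 4 alone gave 6437 for CNTF. Libraries 1 and 2 alone gave 0 for IGF-1, 271 for 1% FBS and 1984 for CNTF by FBS. Leaving out 1 library gave 0 to 5724 for IGF-1 and 628 to 1975 for 1% FBS. It gave 0 to 1061 for dSCI against SCI and 2702 to 6049 for CNTF by FBS. Low counts limit Bmp4, Bmp6 and Smad6 in NPC.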

Other observations

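NPC passed through a pipette in hydrogel, held in it for 4 hours or passed in medium entered no comparison. Id1 was at 39.3–42.9 CPM in NPC DCH, 37.3–40.8 in NPC DCH 4h and 55.7–81.4 in NPC media (n = 5 each), so the libraries in medium lay above those in hydrogel. Bmp4 and Bmp6 group means were at most 0.18 CPM in these 3 groups. Chrdl1 means were 33.1, 34.9 and 32.7 CPM.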
